A study of Rattus norvegicus with 8 samples.

Results

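The miR-181 family was followed in rat pancreatic islets at 2 ages through its 4 main products, miR-181a, miR-181b, miR-181c and miR-181d, and the 6 opposite-arm products of the same hairpins. The members were chosen by name, with earlier results of these data known, and they make up 10 of the 677 rat miRNAs on the array. On the array they are named rno-miR-181a, rno-miR-181b, rno-miR-181c and rno-miR-181d. An asterisk marks the opposite arm of a hairpin (miR-181c*), and the species prefix rno is left out from here on.

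MicroRNAs were measured on 1-colour Agilent arrays in total RNA of islets, the endocrine cell clusters of the pancreas, from untreated Sprague Dawley rats. Islets of rats 10 days old (P10, 4 arrays) were compared with islets of males 3 months old (adult, 4 arrays), a comparison that the title of the series ties to beta-cell maturation. The arrays are labelled as biological replicates, and neither the number of animals per array nor the sex of the P10 rats is given, so p-values describe the spread between these arrays. The 8 arrays shared 1 slide, on which each age filled its own column, and the column cannot be told apart from age. An islet preparation is a mixture of cell types, and in such bulk RNA fewer cells of a type and less RNA per cell cannot be told apart.

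A miRNA guides the silencing machinery to messenger RNAs that carry a match to its seed, the bases near its 5′ end, and members of a family share that seed and so can share targets. The miR-181 family is known best from lymphocytes, where it tunes the response of developing T cells to antigen, and it is also made in brain, muscle and many other tissues. Its genes lie as pairs of neighbouring hairpins, each pair transcribed together.

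The mature sequences of the main products are shown because the family is defined by them. They are RefSeq sequences, read 5′ to 3′, with the seed (bases 2 to 8) in capitals.
miR-181a: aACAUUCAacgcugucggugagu
miR-181b: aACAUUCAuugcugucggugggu
miR-181c: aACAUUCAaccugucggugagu
miR-181d: aACAUUCAuuguugucggugggu
All 4 carried the seed ACAUUCA, whose match in a messenger RNA reads UGAAUGU. No other of the 693 mature names in the RefSeq table had this seed. Counted from the 5′ end, miR-181b differed from miR-181a by A9U, C10U and A21G, and miR-181d differed from miR-181b by C12U alone. miR-181c was 22 bases long against 23 for the others and lay 1 edit from miR-181a. The family therefore falls into a pair of near-identical sequences, miR-181a with miR-181c, and a second pair, miR-181b with miR-181d. How far a probe for 1 member also captures its near-identical partner was not tested.

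The hairpins that give these products lie in 3 clusters of the GRCr8 assembly, all on the plus strand. On chromosome 13 the mature miR-181a of Mir181a-1 lies at chr13:52037081-52037103 and miR-181b of Mir181b1 at chr13:52037263-52037285, between the coding genes Nr5a2 and Ptprc, with 61 bases between the hairpins. Both of these hairpins overlap the long noncoding RNA gene LOC108352541. On chromosome 3 Mir181a2 (chr3:43025563-43025679) and Mir181b2 (chr3:43026666-43026753) lie inside the span of the gene Nr6a1, with 986 bases between them. They also overlap the long noncoding RNA gene LOC120101539. Which transcript carries each pair was not tested. On chromosome 19 Mir181c (chr19:40888291-40888396) and Mir181d (chr19:40888474-40888556) lie 77 bases apart, between Zswim4 and Nanos3. miR-181a is encoded in both of the first clusters. So is miR-181b, since the Mir181b2 hairpin holds its full sequence, although no mature arm was mapped there. For each of miR-181a and miR-181b the array thus gives 1 value for the sum of its loci. miR-181c and miR-181d each come from 1 gene. The hairpins of Mir181a2, Mir181c and Mir181d are shown because, of the hairpin sequences at hand, only these had both arms mapped. Arms of the other hairpins were on the array too. The mapped arms are in capitals.
Mir181a2: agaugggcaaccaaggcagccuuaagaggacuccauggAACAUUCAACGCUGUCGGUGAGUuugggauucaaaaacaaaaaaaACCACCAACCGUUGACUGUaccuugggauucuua
Mir181c: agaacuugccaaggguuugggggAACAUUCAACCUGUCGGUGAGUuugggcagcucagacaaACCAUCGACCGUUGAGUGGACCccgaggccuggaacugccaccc
Mir181d: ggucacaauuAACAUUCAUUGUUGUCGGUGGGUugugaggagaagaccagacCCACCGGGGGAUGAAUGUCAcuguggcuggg
In each of these the left arm is the main product and the right arm is the product that the array names with an asterisk.

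All 4 main products were lower in adult than in P10 islets, by 5.22-fold to 7.20-fold. Values are log2 of the background-subtracted signal divided by the 75th percentile of each array, so that 0 is the level of that percentile, and the lowest value allowed was -5.51, the floor. The ages were compared with limma over all 238 tested miRNAs, p-values were adjusted by Benjamini-Hochberg, and a miRNA was called at an adjusted p under 0.05. All 4 tested members were called lower in adult, where 20.2% of all tested miRNAs were called lower, 27.3% higher and 47.5% in either direction. All 4 were also lower by at least 2-fold, as 13.9% of tested miRNAs were. All P10 arrays lay above all adult arrays for each of the 4, which also held for 20.2% of tested miRNAs. The median log2 difference of the 4 was -2.58, and that of all tested miRNAs was -0.01. Since the family was chosen with earlier results of these data known, its counts beside these shares are a description only.

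miR-181a, the member studied most in T cells, was at 0.61, 0.43, -0.71 and -1.18 on the P10 arrays, in the order of replicates 1 to 4, and at -2.48, -2.58, -2.85 and -2.50 on the adult arrays, in the same order. The P10 arrays formed a high pair and a lower pair, the adult arrays were close together, and the ages did not overlap. The mean fell from -0.21 ± 0.87 (SD, n = 4) to -2.60 ± 0.17 (SD, n = 4), a log2 difference of -2.39 ± 0.40 (SE), which is 5.25-fold (limma adjusted p = 0.00167).

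miR-181b, its partner in 2 of the clusters, lay at -1.34, -1.59, -2.91 and -3.70 on the P10 arrays and at -5.04, -5.27, -5.50 and -5.12 on the adult arrays. The adult values sat just above the floor. The difference was -2.85 ± 0.50 (SE, n = 4 per age), or 7.20-fold (limma adjusted p = 0.00224).

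miR-181c lay at -1.85, -1.87, -2.77 and -2.49 on the P10 arrays and at -4.42, -4.59, -4.52 and -4.98 on the adult arrays. It had the smallest spread of the 4 within P10, 0.46 (SD), against 0.76 to 1.12 for the others. Its difference of -2.38 ± 0.24 (SE, n = 4 per age), or 5.22-fold, had the smallest p of the family (limma adjusted p = 0.000162).

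miR-181d, encoded beside miR-181c, lay at -2.01, -2.14, -3.31 and -3.45 on the P10 arrays, and on the adult arrays at the floor 3 times and at -5.45 on replicate 3. It was well above background on all 4 P10 arrays and on 2 of 4 adult arrays. The fitted difference was -2.76 ± 0.34 (SE, n = 4 per age; limma adjusted p = 0.000334), a size that the floor limits. With the floor 4 log2 units lower it was -2.87 ± 0.35, which includes 2 adult arrays not well above background.

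**Figure D1:**
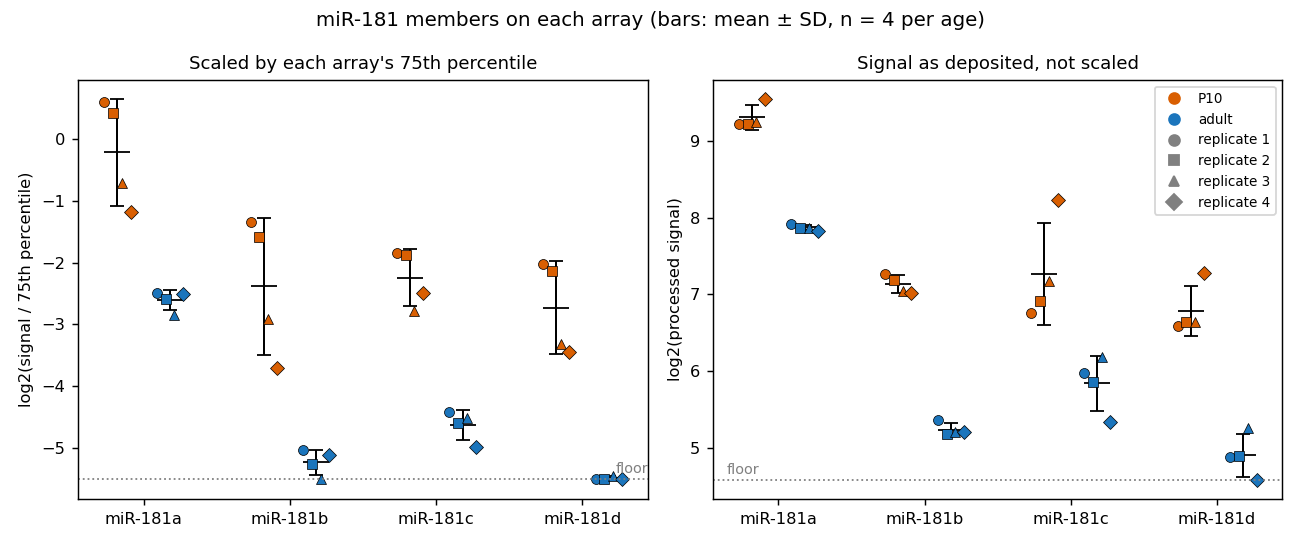
Level of each miR-181 member on each array (y axis; left, log2 of the signal over the 75th percentile of the array; right, log2 of the processed signal without scaling) for P10 and adult, with the replicate shown by the marker and bars giving mean ± SD (n = 4). The ages do not overlap in either panel, and the P10 arrays that are highest on the left (replicates 1 and 2) are not the highest on the right for miR-181a, miR-181c and miR-181d; dotted lines are the floors.

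**Figure D2:**
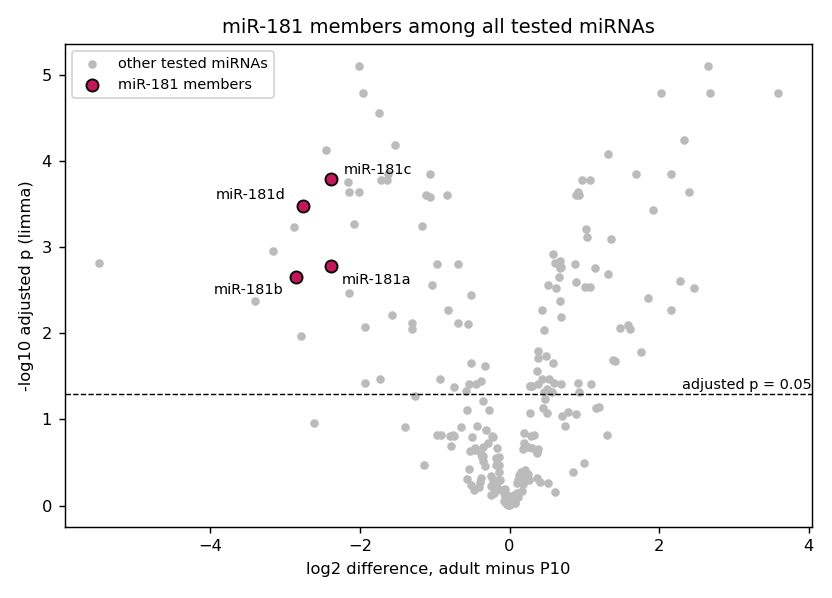
Each point is 1 of the 238 tested miRNAs, with its log2 difference (adult minus P10, x axis) and -log10 of its limma adjusted p (y axis); the dashed line is an adjusted p of 0.05. The 4 miR-181 members, in red, lie between -2.85 and -2.38 on the x axis and above the line.

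The processed signal, before any scaling, showed how the P10 arrays differed. The brighter probe of miR-181a read 593.5, 592.6, 606 and 746.1 on the P10 arrays and 242.4, 233.7, 233.3 and 227.3 on the adult arrays. Within each age these signals were nearly level, and every P10 array was above every adult array. The signal of miR-181b was 153.6, 146.3, 131.9 and 130 on the P10 arrays and between 36.4 and 41.2 on the adult arrays. For miR-181d it was 96.2, 100.1, 99.8 and 154.9 against 22.0 to 38.4. miR-181c stood apart within P10, with 108, 120.4, 144.6 and 300.3, the last on replicate 4, against 40.7 to 72.9 in adult. So replicates 1 and 2 were highest for all 4 members after scaling, whereas before scaling replicate 4 was highest for miR-181a, miR-181c and miR-181d and replicate 1 for miR-181b.

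The percentile that served as divisor read 388, 440, 989 and 1690 for the P10 arrays and 1284 to 1677 for the adult ones, a 4.35-fold range. The median signal of the spike-in probes ranged only 1.25-fold over the same arrays. The SD of miR-181a within P10 was 0.87 with scaling and 0.16 without it, and that of miR-181b was 1.12 and 0.12. For miR-181c the order turned, with 0.46 with scaling and 0.67 without.

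Without scaling all 4 members were still lower in adult, by smaller amounts. The differences were -1.43 ± 0.25 (SE, 2.70-fold, limma adjusted p = 0.0054) for miR-181a, -1.89 ± 0.25 (3.70-fold, adjusted p = 0.00278) for miR-181b, -1.42 ± 0.39 (2.69-fold, adjusted p = 0.0258) for miR-181c and -1.88 ± 0.29 (3.68-fold, adjusted p = 0.00307) for miR-181d. In that setting 7.14% of tested miRNAs were called lower and the median of all tested miRNAs was 0.94. A factor per array shifts the difference of every miRNA above the floor alike, so by construction miR-181a kept its distance from that median, -2.37 without scaling and -2.38 with it. Scaled to the spike-in probes the 4 stood at -1.36, -1.81, -1.35 and -1.78 for miR-181a to miR-181d and were all called, where 3.78% of tested miRNAs were called lower and the median of all was 1.01. The size of the decrease in each member thus depended on the scaling, while its direction was the same in the scalings run.

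The authors' deposited value table, which has its own normalization, also had all 4 members lower in adult. There miR-181a was at 10.4, 10.2, 9.05 and 8.56 in P10 and between 7.20 and 7.53 in adult. The differences were -2.12 for miR-181a, -2.34 for miR-181b, -1.91 for miR-181c and -2.24 for miR-181d, and all passed (limma adjusted p of 0.000298 to 0.00377, n = 4 per age). With those values, 18.1% of tested miRNAs were called lower and the median of all was 0.15.

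**Figure D3:**
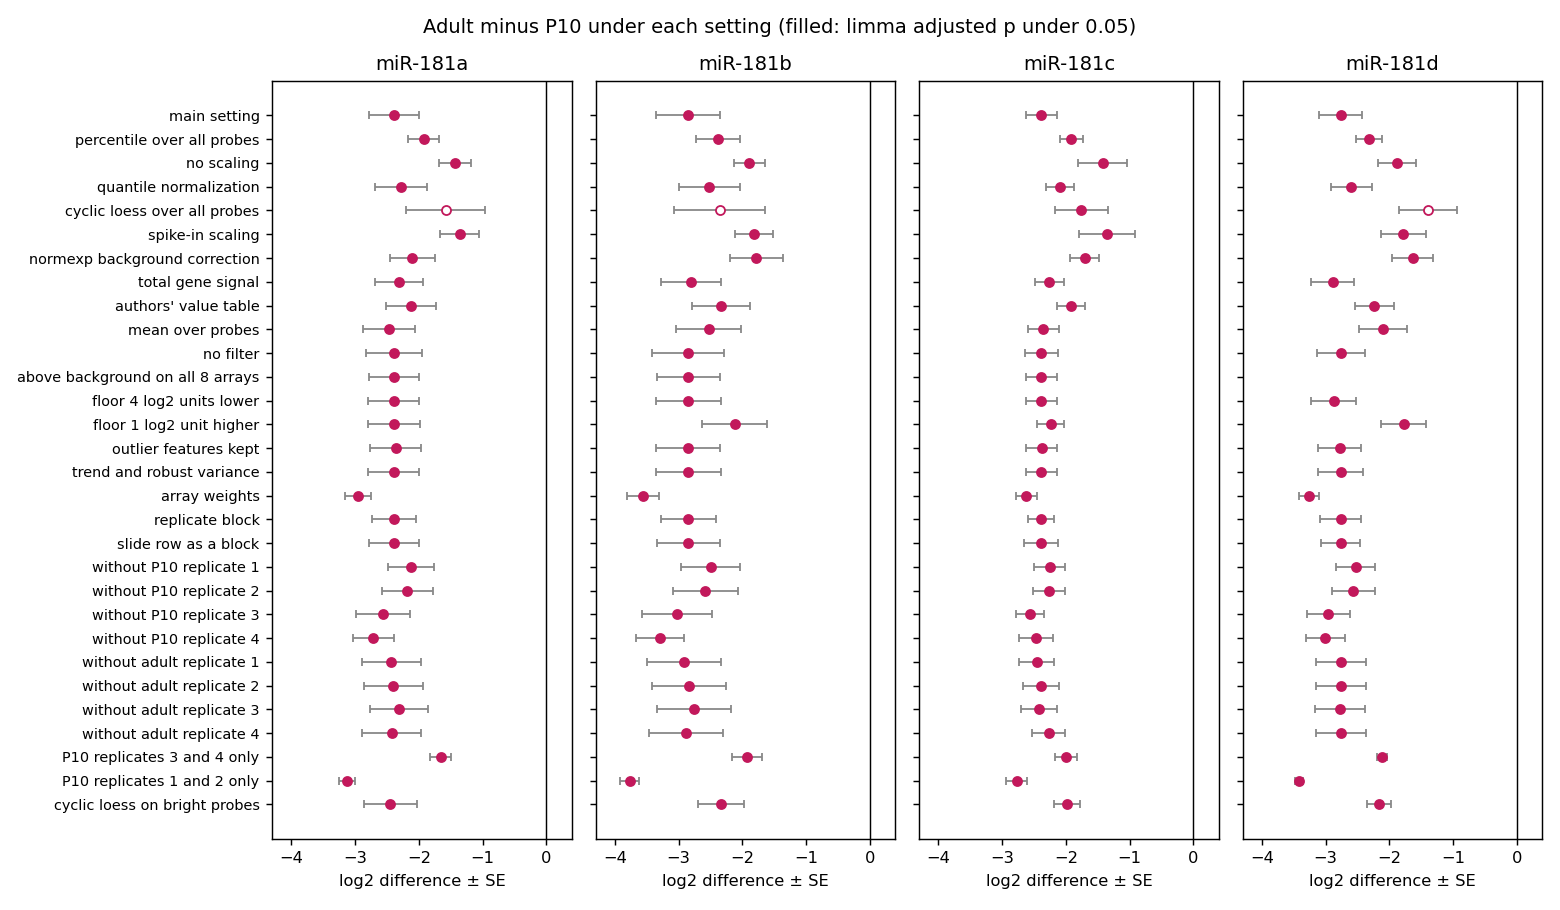
Log2 difference (adult minus P10, x axis, bars ± SE) of each member in the main setting and each alternative (y axis); filled points have a limma adjusted p under 0.05. All points lie below 0, and the open points, for miR-181a, miR-181b and miR-181d, are those of cyclic loess over all probes.

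The call of 3 members was lost with cyclic loess over all probes, a scaling that fits curves between arrays. miR-181a stood at -1.58 (adjusted p = 0.137), miR-181b at -2.35 (adjusted p = 0.0742) and miR-181d at -1.40 (adjusted p = 0.0853, limma, n = 4 per age). There the ages overlapped for miR-181a and miR-181d, and the lowest P10 value equalled the highest adult value for miR-181b and miR-181c. Those equal values belong to the fit: it gave P10 replicate 4 and adult replicate 1 identical values for 58 of 236 miRNAs and moved single probe values by up to 11.7 on the log2 scale, in data where 66.5% of probes lay at the floor on all arrays. With the curves fitted on bright probes instead, an alternative chosen after seeing the data, the differences were -2.45, -2.34, -1.98 and -2.17 for miR-181a to miR-181d, and all 4 passed (limma adjusted p of 0.000117 to 0.00213). In that fit 18.5% of tested miRNAs were called lower. With P10 replicates 3 and 4 alone, on which the members were lowest after scaling, the differences were -1.66, -1.93, -1.997 and -2.11 for miR-181a to miR-181d and all passed, where 21.8% of tested miRNAs were called lower. With replicates 1 and 2 alone they were -3.12, -3.77, -2.77 and -3.42, where 39.1% of tested miRNAs were called lower.

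Each member had 2 probes of 10 features each. Replicate features of the brighter probe varied on 1 array by 1.95% to 10.3% (coefficient of variation) on P10 arrays and by 3.44% to 23.4% on adult arrays, where the signals were lower. Both probes of miR-181a fell, by -2.39 and -2.54, as did those of miR-181c, by -2.38 and -2.33, in a fit over 435 probes (limma adjusted p of 0.000155 to 0.00196). In that fit 20.9% of probes were called lower. The dimmer probe of miR-181b fell below that mark on every adult array, and it was at least 4.47-fold lower in adult (limma adjusted p = 0.00845). The dimmer probe of miR-181d was at least 2.60-fold lower (limma adjusted p = 0.0234). These bounds hold for the main scaling only and set the P10 mean against the lowest signal well above background on the adult arrays. Their p-values come from the fit in which all adult values of these 2 probes were at the floor. Without scaling and with the lower floor, the log2 differences were -2.135 for this miR-181b probe and -2.526 for this miR-181d probe. Before scaling, the dimmer miR-181d probe read 42.6, 42.9, 35.1 and 54.6 in P10 and 7.63, 5.03, 12.4 and 6.70 in adult, so all its P10 signals lay above all its adult signals.

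Whether the members fell by different amounts was tested on the difference between pairs of them within an array, with exact two-sided permutation tests over the 70 splits of the arrays and adjustment over the 6 pairs. miR-181b fell further than miR-181a by 0.46, with a raw p of 0.0286, the smallest these splits allow, but the adjusted p was 0.171 in this exact permutation test. miR-181a and miR-181d differed in their change by 0.37 (exact permutation p = 0.0571, adjusted p = 0.171). For miR-181a and miR-181c the changes differed by -0.01 (exact permutation p = 1). The remaining pairs had adjusted p-values of 0.40 to 0.82, also from exact permutation tests, so no pair was shown to differ. A single differing pair could not pass with these arrays, since the smallest raw p becomes 0.171 after adjustment over 6 pairs. With the floor 1 log2 unit higher the sign turned for miR-181a against miR-181b (-0.27), miR-181a against miR-181d (-0.61), miR-181c against miR-181d (-0.46) and miR-181b against miR-181c (0.12). The near-identical pairs, miR-181a with miR-181c and miR-181b with miR-181d, differed in their change by -0.01 and -0.08 in the main setting. With that higher floor these pairs differed by -0.15 and -0.34, and in the authors' deposited value table by -0.21 and -0.10. The small differences of these pairs thus depended on the setting.

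None of the 6 opposite-arm products was well above background on any array by its probes, and none was tested. miR-181a-1* came closest, with a signal of 10.4, 12.5, 17.99 and 27.7 on the P10 arrays and 5.10, 5.39, 5.89 and 8.58 on the adult arrays for its brighter probe. The scanner software, which sums the probes of a miRNA, marked it as detected on P10 replicates 3 and 4 and on no adult array. It is also the only opposite-arm product listed in the authors' deposited value table, at 5.15, 5.10, 4.91 and 4.91 in P10 and 3.94, 4.21, 3.61 and 4.02 in adult. Both sets of values were higher in P10 without overlap, but at signals near background no fold is given. The RefSeq sequences of miR-181a-1* and of miR-181c* are shown because they share a seed, CCAUCGA, and differ by U16G and U19G only.
miR-181a-1*: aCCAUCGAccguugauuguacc
miR-181c*: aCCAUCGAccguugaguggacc
The probes of miR-181c* and of the other opposite arms read between -11.6 and 3.75 on all arrays, and none of these was well above background.

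The tested miRNAs whose course over the 8 arrays was closest to the family were found from the root mean square distance between mean-centred log2 levels, with the mean of miR-181a, miR-181b and miR-181c as the family profile. The median distance of miRNAs outside the family was 1.4. Outside the family miR-130b was closest, at 0.24, followed by miR-92a (0.24), miR-17-5p (0.27), miR-19b (0.27) and miR-20a (0.31). The members themselves were at 0.11 (miR-181a), 0.15 (miR-181d), 0.27 (miR-181b) and 0.30 (miR-181c). So miR-130b and miR-92a lay nearer the family profile than miR-181b and miR-181c, which are part of it. miR-92a, miR-17-5p, miR-19b and miR-20a all have a gene in 1 cluster on chromosome 15, the Mir17 cluster, known for promoting proliferation, and all but miR-20a also match a gene on chromosome X in RefSeq. miR-130b lies on chromosome 11. Their sequences are shown to compare seeds, none of which is that of miR-181.
miR-130b: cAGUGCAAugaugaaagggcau
miR-92a: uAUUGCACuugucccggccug
miR-17-5p: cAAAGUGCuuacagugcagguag
miR-19b: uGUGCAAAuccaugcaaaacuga
miR-20a: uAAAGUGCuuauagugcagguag
miR-130b was at -1.34, -1.40, -2.57 and -3.04 on the P10 arrays and between -5.21 and -4.71 on the adult arrays. So it had the same order of the P10 arrays as miR-181a, miR-181b and miR-181d, but not miR-181c. The distances are a description over 8 arrays of 2 ages that share their scaling, and were not tested.

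**Figure D4:**
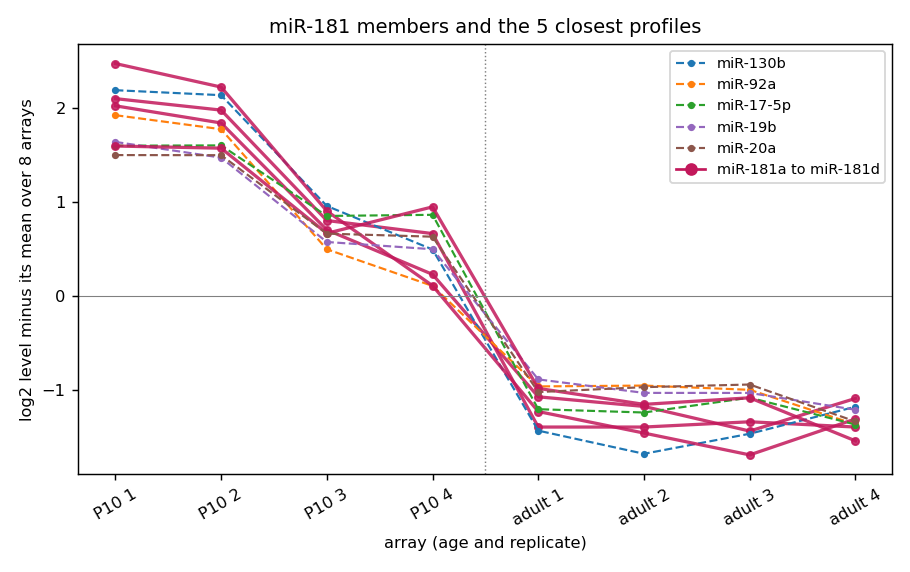
Log2 level of each miRNA minus its own mean over the 8 arrays (y axis) on each array (x axis), for the 4 miR-181 members (solid) and the 5 closest miRNAs outside the family (dashed); lines only join the points of a miRNA. All 9 are above their mean on the P10 arrays, most so on replicates 1 and 2, and below it on the adult arrays.

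Markers of the cell types that an islet preparation can hold are given beside the members, with list levels summed over markers and with the counts of limma calls in the main scaling and over the 6 alternatives of scaling and background correction. The islet miRNA miR-375 was well above background on all 8 arrays. Of 5 islet endocrine miRNAs 4 were tested and 4 were called higher in adult, opposite to the miR-181 members, with a summed level of 3.52 to 4.62 in P10 and 5.40 to 5.60 in adult. Over the alternatives 1 to 4 of them were called higher. miR-375 (adjusted p = 0.0485, limma) kept its call in 1 of the 6, the percentile over all probes, and turned to -0.30, uncalled, with quantile normalization. miR-204 (1.91, adjusted p = 0.000371, limma) kept its call in all 6, miR-153 (1.61) in 5 and miR-7a (1.85) in 4.

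Leukocyte markers bear on a family known from lymphocytes, and 6 of 7 were matched on the array. None of the 6 was called in the main scaling, their median log2 difference was 0.16, and their summed level was 0.14 to 2.06 in P10 and 0.76 to 1.06 in adult. Over the alternatives 0 or 1 was called higher, miR-146b, by quantile normalization (0.37) and by the all-probe percentile (0.58), and none was called lower. miR-150, abundant in mature lymphocytes, lay at -0.55, -1.95, 0.05 and -0.56 on the P10 arrays and between -1.63 and -1.39 on the adult arrays (limma adjusted p = 0.154), and its uncalled difference turned from -0.74 to 0.30 with spike-in scaling. miR-142-3p, a marker of all blood lineages, lay at -2.22, -1.67, -2.07 and 1.36 in P10 and between -0.45 and -0.01 in adult. It was highest on P10 replicate 4 with and without scaling. On that array miR-181a, miR-181b and miR-181d were lowest within P10 after scaling, whereas before scaling miR-181a, miR-181c and miR-181d were highest there and miR-181b lowest.

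All 3 acinar markers were tested and none was called, with a summed level of -3.92 to -0.06 in P10 and -2.12 to -1.12 in adult. miR-216a read -0.60, -0.91, -4.77 and -5.51 in P10, high on the replicates where the miR-181 members were high after scaling. Before scaling its log2 signal was 8.005, 7.874, 5.181 and 4.59, still highest on replicates 1 and 2. There miR-181a, miR-181c and miR-181d were highest on replicate 4 and miR-181b on replicate 1. miR-217 was called higher without scaling (1.59) and with spike-in scaling (1.69).

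All 3 gut epithelium markers were called lower in adult, as the miR-181 members were, with a summed level of 0.15 to 3.75 in P10 and -1.83 to -0.98 in adult. Over the alternatives 1 to 3 of them were called lower. miR-192 lost its call without scaling, with loess over all probes and when the spike-in probes set the scale, and in the last of these miR-194 lost it too. miR-215, at the floor on all adult arrays, was called lower in each of the 6, and it read 1.02, -2.51, 2.07 and -0.64 in P10.

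Of 7 mesenchymal markers 3 were called lower, among them miR-199a-5p (-1.75, adjusted p = 2.75e-05, limma). Another 3 were called higher, among them miR-195 (1.36, adjusted p = 0.000815, limma). The sums were 2.25 to 3.04 in P10 and 2.68 to 3.12 in adult. Over the alternatives 0 to 3 were called lower and 1 to 4 higher. The call of miR-199a-5p was lost without scaling and with spike-in scaling, and that of miR-195 with cyclic loess over all probes. Both endothelial markers were uncalled, with miR-126 called lower by quantile normalization (-0.78) and miR-126* by normexp correction (-0.46). Of 3 erythroid markers 2 were matched on the array and called higher, 1 or 2 over the alternatives, and miR-144 turned to -0.32 with normexp correction. Of 5 neuronal markers 3 were tested and 1, miR-129, was called higher, 1 to 3 over the alternatives, with miR-124 and miR-9 at the floor on all 8 arrays. The part of these cell types, and of the brightness of the arrays, in the decrease of the miR-181 members was not tested.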

How the data were processed

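Total RNA of islets (100 ng per array) was labelled with Cy3 for 1-colour Agilent arrays of rat miRNAs, per the labels. Scanner files were deposited that hold, per the file headers, intensity values of Feature Extraction 10.7.3.1, background-subtracted and not normalized between arrays. For 311 miRNAs the authors also deposited log2 values. Their normalization is not given in sources used here, but the 8 columns share 1 set of sorted values (tolerance 0.01) with a median of 6.54, and each follows the order of the total gene signal of its array.

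Outlier features were left out (2.34% to 3.65% per array), none was saturated, and replicate features were averaged. Arrays were scaled by the 75th percentile of the 278 of 1644 probes well above background on every array. Signals were raised to 1 floor (-5.51), and log2 was taken. A probe was well above background where most of its features were. The brightest probe stood for a miRNA. Of 677 miRNAs, the 238 that passed this mark on 4 or more of 8 arrays were tested (R 4.3.3, limma 3.58.1, lmFit then eBayes without a block, Benjamini-Hochberg over all tested). The limma step was run on simulated data with the same SD at both ages. For the members the P10 SD was 1.89 to 27 times the adult SD, a spread that the simulation does not cover. Between 188 and 248 miRNAs were above background per array, and the number of arrays limits the precision.

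The named miRNAs were the members, their opposite arms, the 5 closest profiles and, from each marker list, up to 3 called with the largest difference and the first listed. Added after their values were seen were miR-150, miR-217, miR-146b, miR-126*, miR-195 and the neuronal markers at the floor. Members and lists were chosen with earlier results of these data known. Replicate numbers did not pair the arrays: the residual correlations of same-numbered arrays were 0.18, -0.09, 0.47 and -0.23. The normexp correction used median signals. Sequences are those of RefSeq (GRCr8), where 9 of 10 family products were matched; the array design uses another build. Cyclic loess on bright probes was chosen after seeing the data.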

Additional observations from a re-analysis of the deposited data

Results flagged for a closer look

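In 18 groups of 4 arrays (4 members and the 5 closest miRNAs, at each age), 2 had an array far from the other 3 by Dixon's criterion, where chance flags about 1 in 20. miR-181d lay at -5.45 on adult replicate 3, with the other adult arrays at the floor, so that the gap comes from the floor. miR-92a lay at -1.80 on adult replicate 4, with the other adult arrays between -1.43 and -1.39.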

How the results depend on the processing

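All 4 members kept their sign in each of the alternatives run (29 for miR-181a, miR-181b and miR-181c, and 28 for miR-181d, which was not tested with the filter of all 8 arrays). The call ended only with cyclic loess over all probes, for miR-181a (-1.58), miR-181b (-2.35) and miR-181d (-1.40), leaving 1 member called, while miR-181c kept its call in all 29; that fit gave 58 of 236 miRNAs identical values on 2 arrays. Leaving out each array gave -2.71 to -2.12 for miR-181a, -3.29 to -2.50 for miR-181b, -2.56 to -2.25 for miR-181c and -3.005 to -2.53 for miR-181d, with all 4 called each time. Between 16% and 25.2% of tested miRNAs were then called lower. Over all tested miRNAs 113 were called here, 65 with spike-in scaling, 31 with loess over all probes, 179 with array weights, 182 with P10 replicates 1 and 2 alone, and 84 to 138 when an array was left out. The share of calls that were lower changed with the scaling: 48 lower and 65 higher here, 34 and 90 with the percentile over all probes, 17 and 61 without scaling, 9 and 56 with spike-in scaling, 46 and 33 with normexp and 21 and 10 with cyclic loess. With the replicate number as a block (replicate block) the count was 95, all 4 members stayed called, and 3 of 8 arrays were closest to their own number in the other age. With the median signals of normexp, miR-144 turned to -0.32, and with quantile normalization miR-375 turned to -0.30. The causes were not tested. Signal over background limits miR-181b and miR-181d in adult, and the opposite arms at both ages.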
